A study of Danio rerio with 8 samples.

Results

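The endocytic scavenger receptors of venous and lymphatic endothelium were followed in RNA from whole zebrafish embryos. The members were 5 of the 32020 rows of the gene count table, taken by gene symbol: MRC1, stab1, stab2, lyve1a and lyve1b, with 1 row each. The set was put together with results of these libraries known, among them the high values of MRC1 and stab2 after treatment. Differences of the members between treated and control libraries are therefore given as a description, and where calls among the members are counted, the count stands beside that over all genes with nothing read from it. The series holds 8 libraries, 4 from control embryos (numbered 1 to 4) and 4 from embryos exposed to 7,17-diHDPAn-3 (numbered 5 to 8), a lipid mediator derived from omega-3 docosapentaenoic acid by adding hydroxyl groups, which was dissolved in ethanol. The design text names the AB wild-type strain and the transgenic lines Tg(gata1: Dsred) and Tg(CD41:GFP), and every library name contains gata_1, with an extra 2b in that of control 4 that is not explained, but the sources used here do not say which strain or line gave these libraries, nor what the controls received. The text describes a screen of metabolites at 1.5 µM from 11 to 36 hours post fertilization, and a search for the best dose between 1 and 1.75 µM. For these 8 libraries the sources used here state neither dose, hours and age at collection nor how many embryos were pooled. They also do not name separate clutches, so the spread between libraries of a group may be technical, and p-values measure only that spread.

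Scavenger endothelium takes up waste macromolecules from the blood through receptors that cycle between the cell surface and endosomes. In zebrafish embryos this work is done by endothelial cells of veins and early lymphatics, in a role that liver sinusoidal endothelium has in mammals. The mannose receptor MRC1 is a C-type lectin that binds glycoproteins with mannose or N-acetylglucosamine ends. The stabilins stab1 and stab2 take up modified lipoproteins and other polyanionic ligands, and stabilin-2 is a clearance receptor for hyaluronan in mammals. The proteins of the lyve1 family carry a hyaluronan-binding link domain and mark lymphatic endothelium, and in zebrafish lyve1b also marks veins.

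The libraries held between 2502636 and 4794081 counts. The cell type on the labels is erythrocytes and their progenitors, but genes of muscle, epidermis and nervous system were present in every library. The 28 rows of a red cell list took 0.386% to 0.940% of counts, and 16 rows named as globins took 0.556% to 1.37%. Control 1 held the smallest share of muscle transcripts, 0.310% against 1.13% to 3.67% in the other 7 libraries. Globin rows were high in control 1, control 3 and treated 5. No difference between the groups passed for total counts or for the red cell, globin and muscle shares. These were two-sided exact permutation tests, with adjusted p between 0.381 and 0.629 over 4 measures. The smallest unadjusted p that such a test of 4 against 4 libraries allows is 0.0286. After adjustment over 4 measures, a measure that differed alone could not pass even at that p. These tests therefore cannot show that the groups were alike in these measures. Endothelial transcripts were present as well: the VE-cadherin gene cdh5 was counted in every library at 12.8 to 36.6 CPM (counts scaled to a common library size), and the VEGF receptor gene kdrl at 10.3 to 35.7 CPM. In such bulk RNA more cells of a type cannot be told apart from more RNA per cell. CPM values here are scaled by TMM, a normalization over genes, and are not divided by gene length, so levels are compared between libraries and not between genes.

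MRC1 had the largest fold change of the members. Its level in controls 1 to 4 was 3.77, 2.05, 8.71 and 5.08 CPM, and in treated 5 to 8 it was 14.1, 33.4, 27.0 and 26.6 CPM. Every treated library lay above every control, with treated 5 closest to them. The group means were 4.90 ± 2.82 and 25.3 ± 8.09 CPM (SD, n = 4), a log2 fold change of 2.40 ± 0.37 (SE). These levels rest on low counts, 8 to 27 per control library and 33 to 129 per treated library. The counting interval (95%, exact Poisson, covering counting error only) was 5.74 to 12.7 CPM in control 3 and 9.69 to 19.8 CPM in treated 5. These intervals of the highest control and the lowest treated library overlapped. They take each deposited count as an independent read, which was not checked, so the true counting error may differ. By fold change MRC1 stood 6th, stab2 50th and stab1 305th of the 14249 genes tested. The members were chosen on this contrast, so nothing is read from these ranks.

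The stabilin stab2 gave the second set of values without overlap. It stood at 12.6, 10.8, 20.3 and 20.5 CPM in controls 1 to 4 and at 29.0, 46.9, 53.1 and 57.7 CPM in treated 5 to 8. The lowest treated library was again treated 5, while controls 3 and 4 lay together above controls 1 and 2. The group means were 16.1 ± 5.11 and 46.7 ± 12.6 CPM (SD, n = 4), a log2 fold change of 1.55 ± 0.26 (SE). Counts per library were 42 to 89 in controls and 68 to 213 in treated libraries. The counting interval (95%) was 16.5 to 25.3 CPM in control 4 and 22.5 to 36.8 CPM in treated 5. For stab2, too, these intervals of the highest control and the lowest treated library overlapped.

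The other stabilin, stab1, differed less and its groups overlapped. Its controls held 10.9, 11.8, 21.3 and 10.4 CPM and its treated libraries 18.8, 28.0, 26.1 and 31.7 CPM. Control 3 lay above treated 5, and the other 3 treated libraries lay above every control. The means were 13.6 ± 5.16 and 26.1 ± 5.44 CPM (SD, n = 4), a log2 fold change of 0.97 ± 0.27 (SE), which was 1.25 without control 3.

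**Figure D1:**
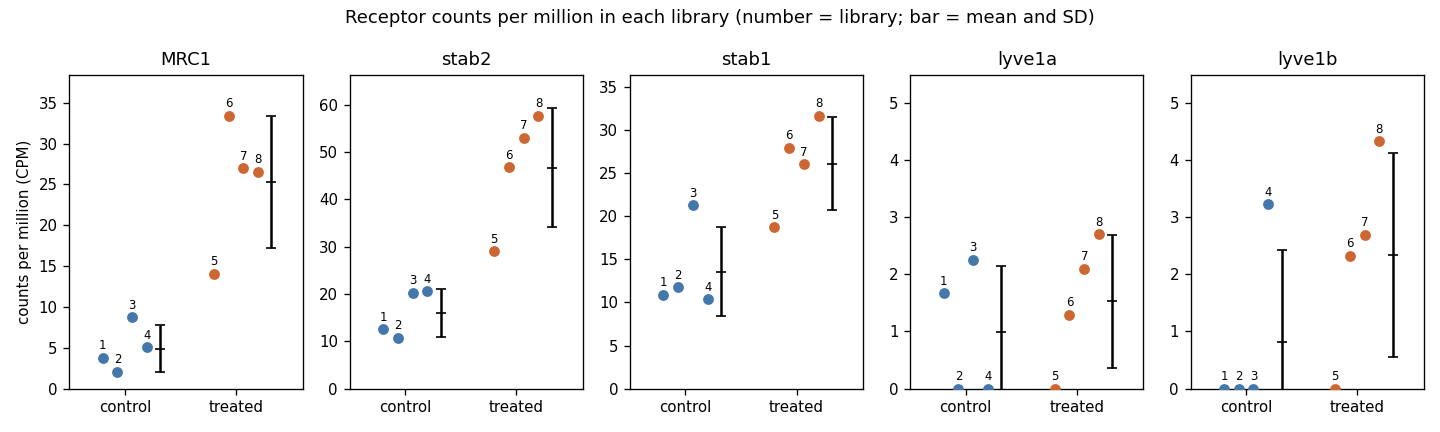
Each panel gives 1 receptor, with CPM on the y axis from 0 and the 8 libraries as numbered points, and a bar for the mean and SD of each group that is cut at 0. MRC1 and stab2 show no overlap between the 4 control and 4 treated libraries, and stab1 overlaps at control 3 and treated 5. On smaller axes, lyve1a runs from 0 to 2.71 CPM and lyve1b from 0 to 4.34 CPM.

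The lyve1 genes were at the edge of detection. lyve1a held 8, 0, 7 and 0 counts in controls 1 to 4 and 0, 5, 7 and 10 in treated 5 to 8. Its groups overlapped, with means of 0.984 ± 1.16 CPM (controls) and 1.53 ± 1.17 CPM (treated, SD, n = 4). lyve1b held 14 counts in control 4 and 0 in controls 1, 2 and 3, and it held 0, 9, 9 and 16 counts in treated 5 to 8. That is 3 of 4 treated libraries with counts and 1 of 4 controls, at group means of 2.34 ± 1.79 and 0.808 ± 1.62 CPM (SD, n = 4). With 3 counts taken as the floor, a 0 would allow up to 0.629 CPM in control 1 and 1.28 CPM in treated 5. The 95% interval used for MRC1 and stab2 would reach 0.773 and 1.57 CPM there. Both limits take counts as independent reads. In this table a 0 may also stand for more than an absence of reads: among rows whose median count was 8 to 15, 8.21% of values were 0 and only 2.48% were 1 to 3. Neither lyve1 row passed the filter on low counts, so they were not tested, and no difference between the groups was detectable for them at this depth.

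Read against the whole table, 3 of 5 members were tested. The groups did not overlap in 2 of those 3, both higher in treated libraries, beside 2.34% of the 14249 genes tested that lay higher without overlap. In edgeR's quasi-likelihood test the threshold was an adjusted p of 0.05, which 0 of the 3 and 0.0% of all genes tested passed. At an unadjusted p of at most 0.05 that test gave 987 genes, 6.93% of those tested. DESeq2 called 18 genes, 0.126% of those tested, and 2 of them were members, MRC1 and stab2. The members were chosen on this contrast, so nothing is read from these shares. Their median log2 fold change was 1.55, and that of all genes tested was -0.004. Among genes of other tissues, 28 of 29 tested muscle rows had higher treated values, with a median of 0.88 and none called, and 9 of 10 tested yolk and liver rows had lower values, with a median of -1.07. The summed yolk and liver rows overlapped between the groups, at 61.6, 180, 471 and 120 CPM in controls 1 to 4. They stood at 95.6, 136, 67.5 and 71.8 CPM in treated 5 to 8. Muscle genes took 1.39% ± 0.965 of counts in the control group and 2.62% ± 0.835 in the treated group (SD, n = 4). Their part in the receptor values was not tested.

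Treated 5 held the lowest treated value of each of the 5 members. It was also the library with the fewest counts, and the red cell list took 0.898% of them against 0.386% to 0.562% in the other treated libraries. Control 3, whose red cell share of 0.940% was similar, had the highest control value of MRC1 and stab1. Without treated 5 the log2 fold changes were 2.59 for MRC1, 1.72 for stab2 and 1.09 for stab1. With control 1 and treated 5 both left out they were 2.48, 1.61 and 0.99. Over each library left out in turn they ran from 2.15 to 2.78 for MRC1, from 1.40 to 1.72 for stab2 and from 0.86 to 1.25 for stab1.

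The receptors were also set against other endothelial transcripts. Since members were chosen with their high treated values known, a higher ratio in treated libraries follows in part from that choice, and the ratios are descriptions. The summed level of the 5 members, divided by that of 29 rows of a pan-endothelial list (cdh5, kdrl, FLI1, flt1, TIE1 and others), was 0.080, 0.080, 0.152 and 0.134 in controls 1 to 4 and 0.173, 0.274, 0.270 and 0.321 in treated 5 to 8. All 4 treated libraries lay above all 4 controls, at 0.260 ± 0.062 against 0.112 ± 0.037 (SD, n = 4). Taken alone, MRC1 and stab2 also gave ratios to the list without overlap. For stab1 alone the ratio overlapped, at 0.0617 in control 3 and 0.0526 in treated 5. Divided by cdh5 alone the members stood at 1.52, 1.92, 2.04 and 2.74 in controls and at 3.72, 3.25, 3.63 and 3.36 in treated libraries. With this denominator treated 5 was the highest treated library and the treated mean was 1.70 times the control mean, against 2.32 times with the list. The summed list itself was 327 ± 31.6 CPM in the control group and 389.9 ± 25.6 CPM in the treated group (SD, n = 4). Its treated mean was 1.19 times its control mean, while the median log2 fold change of its 23 tested rows was 0.49. Of the genes named from the list above, FLI1 had the largest control mean, 20.5 CPM. Most of the sum thus came from rows not named there, and the ratio to the list is mainly a comparison with those rows. Which rows set the sum was not examined.

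Ratios among the receptors are descriptions for the same reason. The ratio of MRC1 to stab2 was 0.300, 0.190, 0.429 and 0.247 in controls 1 to 4 and 0.485, 0.713, 0.508 and 0.460 in treated 5 to 8. The ratio of MRC1 to stab1 was 0.174 to 0.489 in controls and 0.750 to 1.19 in treated libraries. Neither of these ratios overlapped between the groups, but the values of MRC1 to stab2 came close. Control 3 stood at 0.429, resting on 27 counts of MRC1, and treated 8 at 0.460, resting on 98. No counting interval was calculated for the ratios. The ratio of stab2 to stab1 did overlap, at 0.913 to 1.98 in controls and 1.55 to 2.03 in treated libraries.

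**Figure D2:**
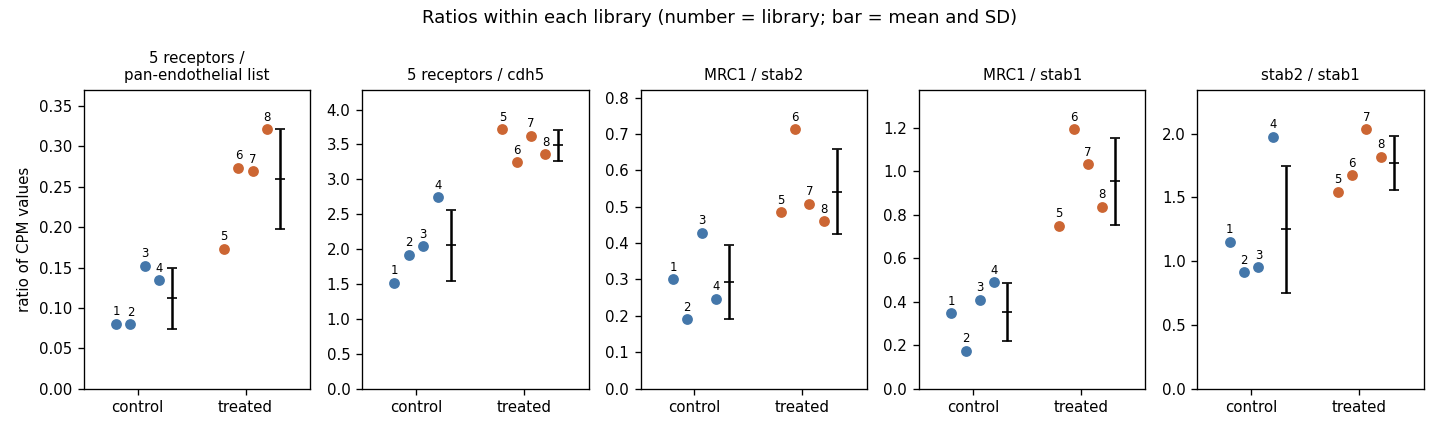
Ratios of CPM values are on the y axis from 0, with each library as a numbered point and the mean and SD of each group as a bar. The ratios of the 5 receptors to the pan-endothelial list and to cdh5, and of MRC1 to stab2 and to stab1, do not overlap between groups, while the ratio of stab2 to stab1 does.

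A measure that the choice of the members did not use is how they vary among libraries of the same group. Log2 CPM was taken relative to each group mean and the members were compared over the 8 libraries, with exact two-sided permutation within groups (576 arrangements, smallest p 0.0017) and adjustment over 3 pairs. MRC1 and stab2 had a Pearson r of 0.862 (exact p = 0.0208, adjusted p = 0.0625) and a Spearman rho of 0.762 (exact p = 0.0903, adjusted p = 0.271). MRC1 and stab1 had r = 0.749 (exact p = 0.0816, adjusted p = 0.122) and rho = 0.571 (exact p = 0.194, adjusted p = 0.292). For stab1 and stab2, r was 0.627 (exact p = 0.158, adjusted p = 0.158) and rho 0.452 (exact p = 0.328, adjusted p = 0.328). None of the 3 pairs passed after adjustment. Without the 2 libraries farthest from the median of the first gene, r over 6 libraries was 0.565 for MRC1 with stab2, 0.830 for MRC1 with stab1 and -0.321 for stab1 with stab2. Control 2 and treated 5 were the libraries left out for both MRC1 pairs, and control 3 and treated 5 for the stabilin pair. For the stabilins r thus depended on which libraries were kept. With 1 library left out it was 0.564 without control 3, 0.438 without treated 5 and 0.925 without control 4.

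**Figure D3:**
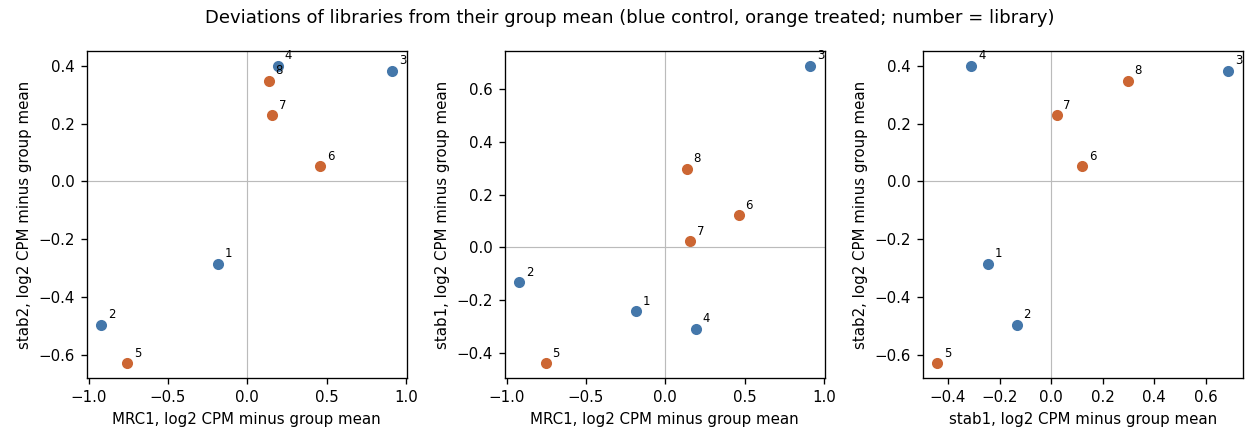
Each axis gives log2 CPM of 1 receptor minus the mean of the library's group, for MRC1 and stab2, MRC1 and stab1, and stab1 and stab2, with the 8 libraries as numbered points. Treated 5 lies low for all 3 receptors and control 3 lies high.

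Among the many genes compared, some followed a member more closely than the other members did. Picking the highest r of so many genes over 8 libraries favours such values. By the same deviations over 8 libraries, MRC1 ranked 93rd of 14248 genes in likeness to stab2, and stab1 ranked 1045th. Among 10672 named genes of at least 5 CPM, the most alike to stab2 were RNGTT, mtus1a, TRAP1, TASP1 and HSPA13, with r from 0.942 to 0.970. The most alike to MRC1 were HSPA14, PPIP5K1, MNS1, RRP12 and ECPAS, with r from 0.961 to 0.985. These are descriptions of 8 libraries that share depth and tissue makeup, and no test was made.

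The closest relatives of MRC1 overlapped between the groups. mrc1b, a separate row of the table, held 8, 14, 4 and 20 counts in controls and 0, 17, 0 and 4 in treated libraries. Its group means were 2.79 ± 1.58 and 1.37 ± 2.08 CPM (SD, n = 4, controls first), and it did not pass the low-count filter. The name table does not say which zebrafish copy the row named MRC1 is. The other mannose receptor family genes had log2 fold changes of 0.27 ± 0.22 for MRC2, a collagen receptor, 0.45 ± 0.30 for PLA2R1, the receptor of secreted phospholipase A2, and 0.15 ± 0.34 for LY75, an antigen uptake receptor of dendritic cells in mammals (SE, edgeR adjusted p = 0.850, 0.818 and 0.958). mrc1b, PLA2R1 and LY75 were named after their values were seen. Of 20 tested rows on a list of other mannose receptor and scavenger receptor genes, 12 had higher and 8 lower treated values and 0 were called. The median was 0.18, and it was 0.06 without treated 7, 0.32 without treated 6 and 0.03 without control 1 and treated 5. COLEC12, a scavenger receptor of endothelium, stood at 27.6 ± 2.14 and 36.5 ± 6.05 CPM (edgeR adjusted p = 0.700). Its groups did not overlap, as for 2.34% of all genes tested on the higher side, but control 1 (29.76 CPM) and treated 5 (29.86 CPM) nearly met. The low-density lipoprotein receptors ldlra and ldlrb had log2 fold changes of -0.95 ± 0.30 and -0.36 ± 0.17 (SE, edgeR adjusted p = 0.563 and 0.717). The endocytic receptor LRP2 had 0.37 ± 0.18 (SE, edgeR adjusted p = 0.738).

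Among genes of venous and lymphatic identity the values were mixed. FLT4, the receptor of VEGFC, held 1.26, 3.59, 9.35 and 4.85 CPM in controls and 8.11, 15.3, 13.5 and 8.40 CPM in treated libraries, with control 3 above treated 5 and treated 8. Its group means were 4.76 ± 3.40 and 11.3 ± 3.62 CPM (SD, n = 4, edgeR adjusted p = 0.586). The log2 fold change of FLT4 was 1.2998 ± 0.459 (SE), between those of stab1 (0.97) and stab2 (1.55). NR2F2, a transcription factor of venous fate, had -0.14 ± 0.13, and PROX1, which sets lymphatic fate, 0.01 ± 0.20 (SE, edgeR adjusted p = 0.869 and 0.994), and both are also made in other tissues. PROX1 was named after its value was seen. The endocytic adaptor DAB2 had 2 rows, at 0.37 ± 0.21 and 0.32 ± 0.33 (SE, edgeR adjusted p = 0.774 and 0.884). Of 25 tested rows of the list, 18 had higher and 7 lower values and 0 were called, with a median of 0.19 that was 0.05 without treated 7. At an unadjusted p of at most 0.05, 2 were higher and 0 lower, where 3.63% of all genes tested were higher and 3.3% lower. The venous list was chosen with earlier results of these data known, so nothing is read from these shares.

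Pan-endothelial and arterial genes had more higher than lower treated values. Of 23 tested pan-endothelial rows, 17 had higher and 6 lower treated values, with a median log2 fold change of 0.49, and 8 were higher and 0 lower at an unadjusted p of at most 0.05, beside the 3.63% and 3.3% of all genes given above. Past the adjusted threshold there were 0. The pan-endothelial and arterial lists were chosen with earlier results of these data known, so nothing is read from such shares. The named rows of smallest p were flt1 with 1.23 ± 0.45, cdh5 with 0.73 ± 0.27, TIE1 with 0.73 ± 0.28 and FLI1 with 0.49 ± 0.18. The marker gene kdrl had 0.76 ± 0.31 (SE, edgeR adjusted p between 0.597 and 0.642 for these genes). FLI1 and TIE1 lay higher in all 4 treated libraries than in any control, as did 2.34% of all genes tested, while cdh5 and kdrl overlapped. 4 entries, among them TIE1, stand on both the venous and the pan-endothelial list. The arterial list had 15 rows higher and 5 lower of 20 tested, a median of 0.30 that was 0.16 with no low-count filter, 7 rows higher and 0 lower at an unadjusted p of at most 0.05, and 0 called. The rows with its smallest p, the Notch receptors NOTCH1 (2 rows) and NOTCH3 and the guidance receptor UNC5B, had values from 0.28 to 0.36 (edgeR adjusted p between 0.563 and 0.656), and they are expressed in many tissues. The Notch ligand dll4 had 0.35 ± 0.25 and the 2 rows of EFNB2, an ephrin of arteries, had -0.09 ± 0.35 and -0.11 ± 0.15 (SE, edgeR adjusted p between 0.830 and 0.975).

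**Figure D4:**
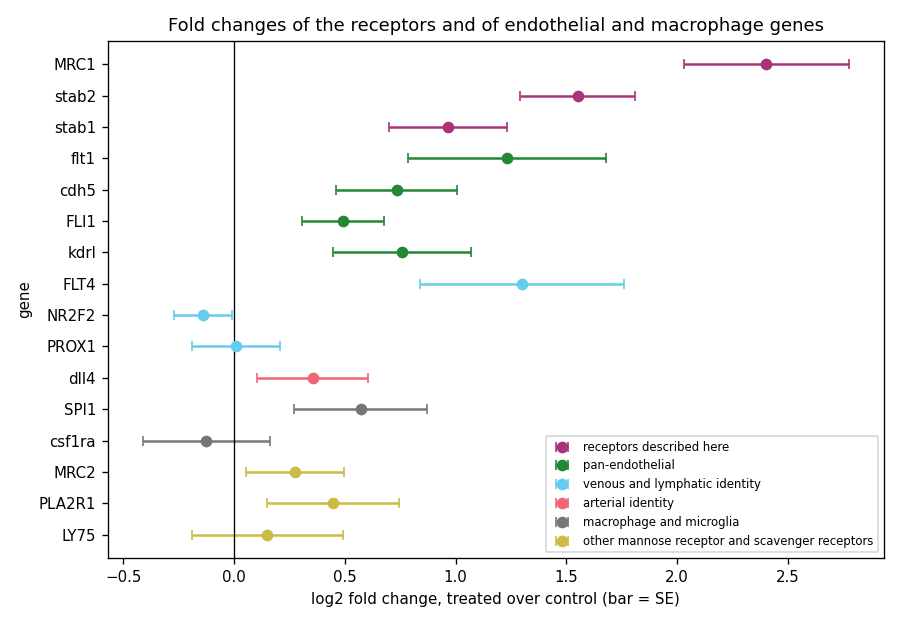
The x axis gives the log2 fold change of treated over control libraries with its SE as a bar, for 3 receptors (the lyve1 genes were not tested) and 13 endothelial, macrophage and mannose receptor family genes. MRC1 (2.40) and stab2 (1.55) stand to the right of cdh5 (0.73), kdrl (0.76) and NR2F2 (-0.14). The endothelial genes FLT4 and flt1 had values between those of stab1 (0.97) and stab2.

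In mammals MRC1, stab1 and lyve1 are also made by macrophages, so macrophage genes were set beside them. The summed level of 34 macrophage and microglia rows was 183 to 229 CPM in controls and 165 to 241 CPM in treated libraries. Of these rows 13 had counts in every library and 8 were listed at 0 in all of them, including c1qa, c1qb and c1qc. Of 11 tested rows, 5 had higher and 6 lower treated values and 0 were called, with a median of -0.10 that ran from -0.17 to -0.05 with 1 library left out and was -0.22 without control 1 and treated 5. csf1ra, the receptor of macrophage growth factors, stood at 12.1 ± 3.32 and 11.3 ± 2.82 CPM, and the tested row of the pore-forming MPEG1 at 5.80 ± 2.35 and 6.07 ± 3.02 CPM (SD, n = 4, edgeR adjusted p = 0.958 and 0.984). SPI1, a myeloid transcription factor, lay higher in all 4 treated libraries than in any control, as did 2.34% of all genes tested. Its level was 8.86 ± 1.54 CPM in treated libraries against 5.94 ± 0.772 CPM in controls (SD, n = 4, edgeR adjusted p = 0.756). The closest libraries were control 4 at 6.7 CPM and treated 7 at 7.2 CPM. CORO1A, AIF1L and cd68 had -0.37, -0.16 and -0.26 (edgeR adjusted p between 0.877 and 0.922). The part of macrophages in the receptor values was not tested.

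Genes that make or bind hyaluronan, a ligand of stabilin-2 and the lyve1 proteins, were not called. Of 18 tested rows 13 had higher and 5 lower treated values, with a median of 0.19 that was 0.01 without control 3 and 0.29 without control 4. The matrix link protein gene hapln1a had a log2 fold change of 0.26 ± 0.13, and CEMIP2 and CEMIP, which take part in hyaluronan breakdown, had 0.31 ± 0.16 and -0.44 ± 0.28 (SE, edgeR adjusted p between 0.739 and 0.806). The hyaluronidase HYAL2 had 0.76 ± 0.58 and the synthase HAS2 0.09 ± 0.87 (SE, edgeR adjusted p = 0.847 and 0.988). The rows of the hyaluronan receptors cd44a and cd44b were listed at 0 in all 8 libraries.

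Among general endocytic and lysosomal genes, lower treated values were more numerous. Of 66 tested rows, 21 had higher and 45 lower treated values, with a median of -0.09 that was -0.05 without control 1, and 0 were called. The cathepsin CTSK stood at 5.47 ± 1.21 and 9.83 ± 0.850 CPM and CTSZ at 9.65 ± 1.53 and 5.59 ± 1.38 CPM (SD, n = 4, edgeR adjusted p = 0.586 and 0.629). Without overlap between the groups, 3 of the 66 rows lay higher, among them CTSK, and 3 lower, among them CTSZ and MANBA. Of all genes tested, 2.34% lay higher and 2.29% lower in this way. The lysosomal mannosidase MANBA and the membrane-curving AMPH had -1.86 ± 0.76 and -0.54 ± 0.22 (SE, edgeR adjusted p = 0.637 and 0.636). MANBA held only 9, 0, 4 and 5 counts in treated 5 to 8. Its groups nearly met, at 4.11 CPM in control 2 and 3.84 CPM in treated 5.

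**Figure D5:**
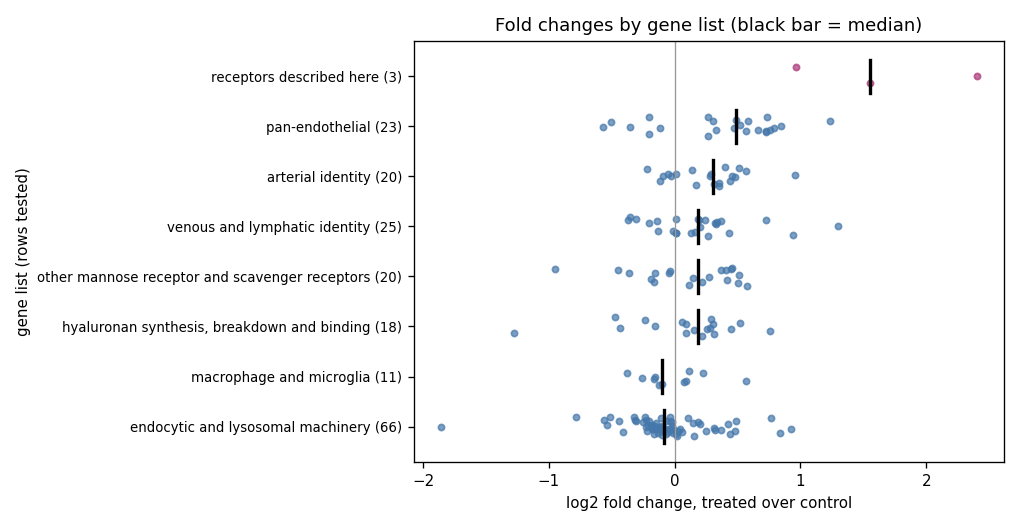
Each point is a tested row placed by its log2 fold change of treated over control libraries on the x axis, with lists as lines on the y axis and the number of tested rows in parentheses, and black bars are medians. The 3 tested receptors lie between 0.97 and 2.40, while the medians of the 7 lists plotted run from -0.10 to 0.49.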

How the data were processed

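RNA of 8 zebrafish embryo libraries (4 control, 4 treated) was measured by stranded total RNA sequencing as paired 100 bp reads, per the labels' protocols. The authors deposited whole-number counts per gene. The submitters' processing notes name HISAT2 2.1.0, StringTie 1.3.3b, Trim Galore 0.5.0, CASAVA 1.8.2, DESeq2 1.22.1 and the build GRCz11, with no role. Annotation release and strand setting are not given in the sources, so reads of overlapping, antisense or near-identical genes could not be told apart. Of 32020 rows 28975 matched a symbol, and 0 sample columns were left out. No sequences or coordinates are given, since no genome of the files' build was used here.

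After the filterByExpr filter 14249 genes remained, TMM scaling was applied (edgeR 4.0.16 in R 4.3.3), and groups were compared with its quasi-likelihood test (robust dispersion, no covariate, Benjamini-Hochberg threshold 0.05). The SE of a log2 fold change was taken as its absolute value divided by the square root of the quasi-likelihood F. Correlations used log2 CPM with a prior count of 2. Permutation tests and figures used Python 3.11.15, SciPy 1.17.1 and matplotlib 3.10.9. As alternatives, limma-voom (limma 3.58.1), DESeq2 1.42.0, further scalings and low-count filters, 1 surrogate variable (sva 3.50.0), non-robust dispersion, unnamed or globin rows left out, and libraries left out were tried. Within groups, chi-square per degree of freedom between libraries was 7.84 to 20.9, so no pair agreed within sampling noise.

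The members and the gene lists were chosen with earlier results of these data known. Of 385 list entries 270 matched by symbol, 79 matched once a paralog suffix was dropped and 36 had no row. Beyond the members, the text names in each of 7 lists the 4 rows of smallest p with a mean of at least 2 CPM, a fixed set of marker genes, and the 5 genes most alike to stab2 and to MRC1. 1 gene that this rule takes is not reported here. The lists of red cell, muscle, neural, epidermal, yolk and liver genes served to describe the libraries. Their medians were -0.17, 0.88, -0.07, 0.01 and -1.07.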

Additional observations from a re-analysis of the deposited data

Results flagged for a closer look

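In 136 groups of 4 libraries that were examined, 8 held 1 library far from the other 3, and chance gives about 1 in 20. Among the receptors, lyve1b stood at 3.23 CPM in control 4 and at 0 in the other controls. stab1 stood at 21.3 CPM in control 3, above the other controls at 10.4 to 11.8 CPM. The 5 receptors together took 0.00579% of counts in treated 5 and 0.0112% to 0.0120% in the other treated libraries.

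The remaining 5 were low rows of other genes. 1 row named MFAP4 stood at 2.08 CPM in control 4 and at 2.40 CPM in treated 7, with 0 in the other 6 libraries. marco, a macrophage scavenger receptor, stood at 1.799 CPM in treated 7 and at 0 in the other treated libraries. HYAL2 at 5.66 CPM and MANBA at 8.80 CPM were high in control 1.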

How the results depend on the processing

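The log2 fold changes of MRC1, stab1 and stab2 kept their direction under each of 20 alternatives, with ranges of 2.15 to 2.78, 0.86 to 1.25 and 1.40 to 1.72, and their median ran from 1.40 to 1.72. The alternatives reuse the libraries whose results were known when the members were chosen, so nothing is read from the kept direction. The number of genes called, 0 in the main test, was 18 with DESeq2, 4 with no low-count filter, 2 with a filter of 5 CPM, 2 with 1 surrogate variable, 1 without control 1 and treated 5, and 0 to 1 with single libraries left out. Members were 2 of the calls with DESeq2, 2 with no filter, 1 with the 5 CPM filter and 2 with 1 surrogate variable. The members were chosen on this contrast, so nothing is read from these counts either. DESeq2 gave no adjusted p for 5526 genes and so adjusted over fewer. With no filter the macrophage median turned from -0.10 to 0.071 and the arterial median of 0.30 was 0.16, below the venous median of 0.17. The difference of the receptor ratio to the pan-endothelial list, 0.148, was 0.127 to 0.177 with single libraries left out and 1.44 with cdh5 as denominator, which is another unit. The cause was not tested. Pearson r between members ran over single libraries left out from 0.489 to 0.870 for MRC1 and stab1, 0.799 to 0.896 for MRC1 and stab2, and 0.438 to 0.925 for stab1 and stab2. No paired analysis was possible because control and treated libraries share no replicate number. Depth limits lyve1a and lyve1b to at most 16 counts per library.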
